A study of Macaca mulatta with 4 samples.

Results

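Chromosome 7 of the rhesus macaque (Macaca mulatta) was described here by its DNase I hotspots, stretches of open chromatin that the nuclease cut more often than their surroundings. The members were all hotspots that the deposited lists place on chromosome 7, 22537 of 328084 over 4 libraries. Merging the hotspots that overlap or touch gave 15145 regions on this chromosome, of 222970 in the whole genome. They ran from position 5187 to position 169587440 of build rheMac8, with positions counted from 1. Regions are given by position and without gene names, since genes of rheMac8 were not used here.

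DNase-seq was carried out on morulae, the stage at which the embryo is a compact ball of cells. The study set androgenetic embryos (AG), whose nuclear genome comes from sperm, against gynogenetic embryos (GG), whose nuclear genome comes from the oocyte, in order to study imprinting before implantation. There were 2 libraries of each kind, AG replicates 1 and 2 and GG replicates 1 and 2, and every sample was digested with DNase I at 40 U/ml for 5 min at 37 °C. Both kinds of embryo are uniparental, and biparental morulae were not analysed here. The labels do not say how many embryos went into a library or whether replicates came from separate embryos or donors, so every p-value here rests on the scatter of 2 libraries a group, and that scatter may be technical. How the embryos were made and which animals gave the gametes may differ between AG and GG and cannot be told apart from parental origin. The lists give a position and a score for each hotspot and no reads, so depth is unknown.

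Macaque chromosome 7 corresponds to human chromosomes 14 and 15, which became separate chromosomes in the lineage of apes and humans. Those human chromosomes carry well-known imprinted clusters: the DLK1 and MEG3 cluster on 14, and on 15 the cluster of SNRPN and UBE3A, whose loss from one parent causes Prader-Willi or Angelman syndrome. In the RefSeq table of another assembly, T2T-MMU8v2.0, 10 of 11 genes of these clusters that were looked up were listed under chromosome 7. Their order there was ATP10A, UBE3A, SNRPN, SNURF, NDN, MAGEL2 and MKRN3, followed by DLK1, RTL1 and DIO3. Positions of that assembly were not carried over to the hotspots. An imprinted gene is used from only one parental copy, and open chromatin at its control region can differ between maternal and paternal chromosomes.

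The share of open chromatin on chromosome 7 gave no separation of AG from GG embryos, in a design of 2 against 2 that cannot show a difference by an exact test. It held 4710 hotspots in AG replicate 1, 5599 in AG replicate 2, 5339 in GG replicate 1 and 6889 in GG replicate 2. They covered 5.10, 5.48, 6.11 and 7.70 Mb in the same order, so that both GG libraries lay above both AG libraries. As a share of each library's covered bp, chromosome 7 took 7.52% and 6.51% in AG and 5.98% and 8.26% in GG. Both AG values thus lay between the GG values. The share averaged 7.01 ± 0.715% over the AG libraries and 7.12 ± 1.61% over the GG libraries (SD, n = 2 each), a difference of -0.110 percentage points (AG minus GG) that was much smaller than either spread (two-sided exact permutation p = 1). Covered length averaged 5.29 ± 0.273 Mb in AG and 6.90 ± 1.12 Mb in GG (p = 0.33 in the same exact permutation test, the smallest that 2 against 2 can give). The number of hotspots averaged 5154.5 ± 629 in AG and 6114 ± 1096 in GG (exact permutation p = 0.667).

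Single libraries decided the direction of the share. Without AG replicate 2 the AG minus GG difference in share was 0.396 percentage points, without GG replicate 2 it was 1.03, without AG replicate 1 it was -0.616 and without GG replicate 1 it was -1.25. Covered length differed by -1.61 Mb with all libraries and by -0.818 Mb without GG replicate 2, and number by -184.5 without GG replicate 2 and -515 without AG replicate 1, from -959.5. With each list shortened to equal covered length the difference in covered length came to -0.130 Mb.

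Hotspots on chromosome 7 had the shape of those elsewhere. Their median width was 920 and 877 bp in AG and 921 and 951 bp in GG, against 891 to 917 bp on the other autosomes. Neighbouring hotspots lay a median of 15.8 and 14.6 kb apart in AG and 12.2 and 13.0 kb in GG. The chromosome carried 27.8 and 33.0 hotspots per Mb in AG and 31.5 and 40.6 per Mb in GG. Other autosomes together carried 24.0 and 31.8 per Mb in AG and 35.0 and 31.1 per Mb in GG. GG replicate 1 was therefore the one library in which chromosome 7 was sparser than the rest, where it ranked 15 of 20 autosomes in density, against 6 in both AG libraries and 3 in GG replicate 2.

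In its share of covered bp, chromosome 7 differed more within GG than between the groups. That share of covered bp was 1.38 times higher in GG replicate 2 than in GG replicate 1, a gap of 2.28 percentage points. For the other 19 autosomes that ratio ran from 0.710 (chromosome 18) to 1.14 (chromosome 10), with a median of 0.950. Chromosome 18 differed as much between the GG replicates, by 1.41 times, but was lower in replicate 2. In AG, chromosome 7 leaned the other way, with replicate 2 at 0.865 times the share of replicate 1, inside the 0.847 to 1.39 of the other autosomes. In percentage points the AG gap was -1.01, outside the -0.744 to 1.47 of the other autosomes. The plot of replicate ratios by autosome shows chromosome 7 alone at the top in GG. The cause of the GG gap was not tested, and with 1 library on each side of it there is no test of it.

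**Figure D1:**
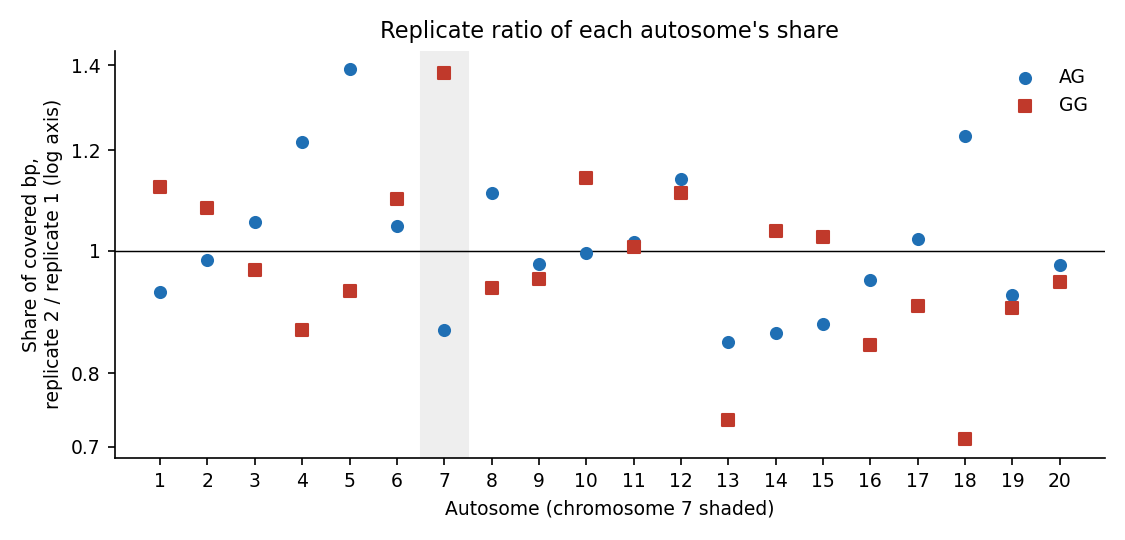
Ratio of each autosome's share of covered bp in replicate 2 to that in replicate 1 (log axis), for AG (circles) and GG (squares), 1 library per replicate; the line marks equal shares. Chromosome 7, shaded, has the highest ratio in GG (1.38) and a ratio of 0.865 in AG.

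The gap within GG took in the whole chromosome. In each of the 17 segments of 10 Mb (the last of 9.59 Mb), GG replicate 2 held a larger share of its covered bp than GG replicate 1, from 1.19 times in segment 7 to 1.97 times in segment 11. In segment 11, the library shares were 0.150% in GG replicate 1 and 0.296% in GG replicate 2, against 0.173% and 0.160% in AG. In segment 14, among the densest in every library, they were 0.545% and 0.663% in GG against 0.628% and 0.530% in AG. Segments 8, 11 and 15 were the troughs in each library, but the order of the other segments was not the same in all. Of the chromosome's covered bp, segments 1 and 4 held 5.48% and 4.21% in AG replicate 1. In GG replicate 1 they held 3.89% and 5.24%. In AG, replicate 1 had the higher scaled value in 16 of the 17 segments, segment 8 being the exception.

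**Figure D2:**
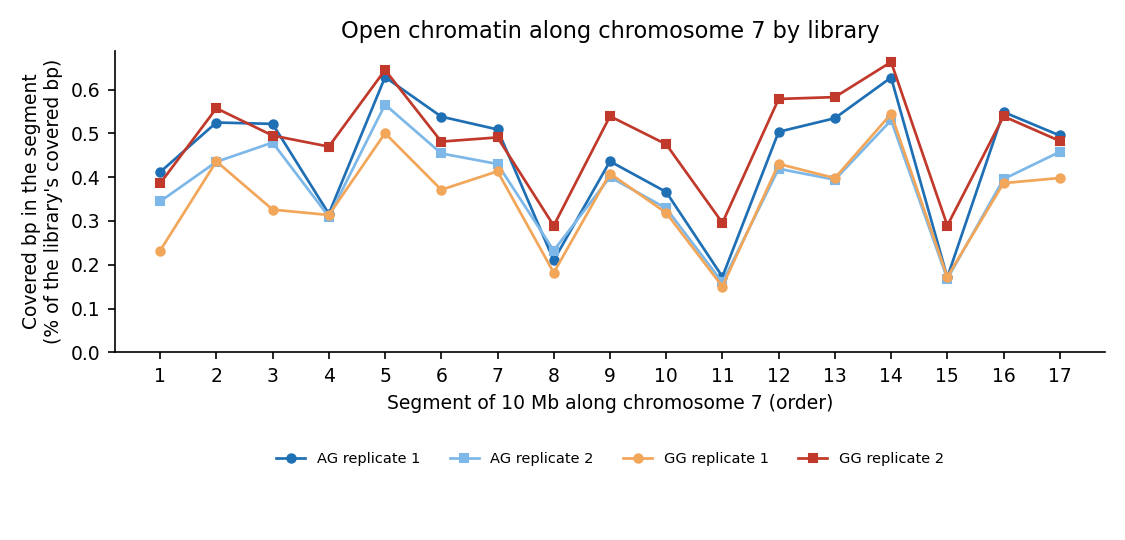
Covered bp in each segment of 10 Mb along chromosome 7, in order, as a percentage of the library's covered bp, for the 4 libraries (1 line each). GG replicate 2 runs above GG replicate 1 in all 17 segments, while the troughs at segments 8, 11 and 15 are shared by the 4 libraries.

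In windows of 1 Mb the pattern was the same. Window values were log2 of covered bp plus 1000 bp, divided by the library's mean over windows, so that a difference of 1 is 2-fold on that scale. GG replicate 2 exceeded GG replicate 1 in 163 of the 170 windows of chromosome 7 (95.9%), against 46.8% of 2512 windows on other autosomes. The median difference, replicate 2 minus replicate 1, was 0.53 on chromosome 7 and -0.03 on the other autosomes. Chromosomes 18 and 13 had medians of the same size and opposite sign, -0.65 and -0.54. In AG the median on chromosome 7 was -0.14, and replicate 2 was higher in 60 of 170 windows. Once each library was scaled to its own mean on the chromosome, the median size of the GG replicate difference fell to 0.26 per window from 0.53, beside 0.21 on other autosomes.

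The difference between the GG libraries was larger in sparse windows than in dense ones. In the 57 sparsest windows of chromosome 7 (up to 24.2 kb covered on average) the median GG difference was 0.83, in the next 56 windows it was 0.60, and in the 57 densest (from 44.2 kb) it was 0.33. Windows of the same 3 ranges on other autosomes had medians of -0.06, -0.01 and -0.01. The AG difference fell along the same ranges, from 0.18 to -0.13 and -0.31, and did so on the other autosomes as well, from 0.44 to 0.01 and -0.14. The widest GG difference was at 104000001 to 105000000, where hotspots covered 4.53 kb in GG replicate 1 and 17.2 kb in GG replicate 2, against 1.91 and 4.56 kb in AG. The next were at 149000001 to 150000000 (4.50 and 16.7 kb in GG) and 128000001 to 129000000 (8.07 and 27.3 kb in GG). In AG the widest was at 88000001 to 89000000, with 1.97 kb in replicate 1 and 8.54 kb in replicate 2.

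**Figure D3:**
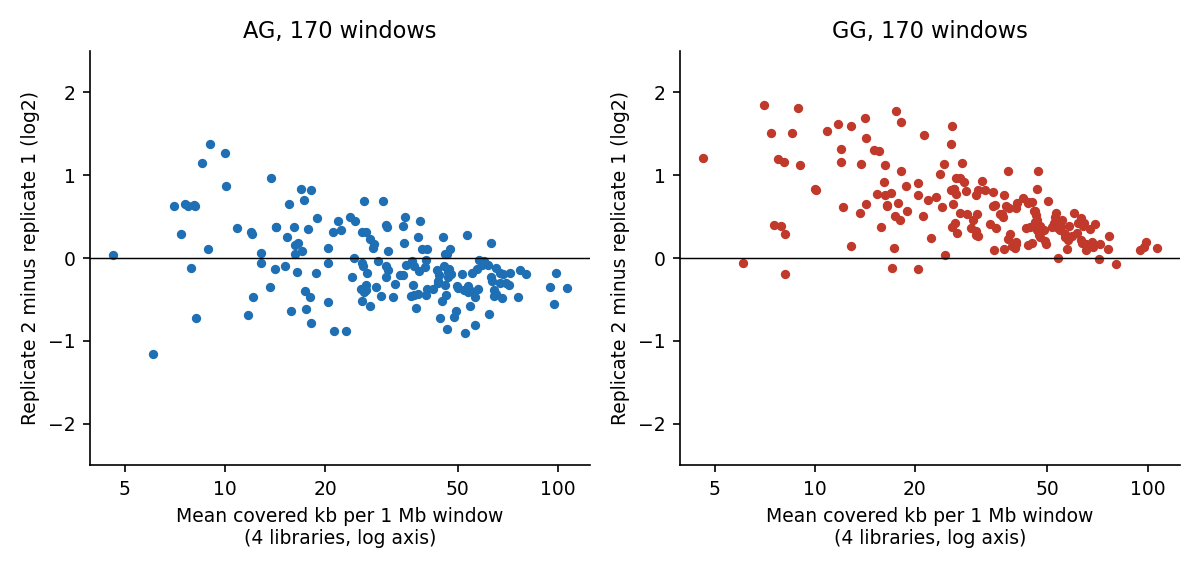
Replicate 2 minus replicate 1 (log2 of scaled covered bp) for the 170 windows of 1 Mb of chromosome 7, in AG (left) and GG (right), against the window's mean covered kb over the 4 libraries (log axis). Of the GG points, 163 lie above 0, and their distance from 0 is larger in sparse windows; the AG points lie on both sides.

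Weak hotspots showed the GG gap and the strongest did not. Each list was divided into deciles of the authors' score, ranked over its whole genome. Chromosome 7 made up 4.88% of the lowest decile in GG replicate 1 and 7.78% in GG replicate 2, a ratio of 1.59. In the highest decile it made up 7.06% and 7.10%, a ratio of 1.01. The ratio was 1.60 over the lower-scoring 50% and 1.26 over the higher-scoring 50% of the lists, the highest of 20 autosomes in both. Among the strongest decile, chromosome 7 ranked 11 of 20. Chromosome 13, lower in GG replicate 2, likewise came closer to 1 with score, from 0.698 in the lowest decile to 0.945 in the highest, while chromosome 18 was at 0.694 and 0.699. In AG, the ratio of replicate 2 to replicate 1 on chromosome 7 was 0.991 in the lowest and 0.815 in the highest decile.

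**Figure D4:**
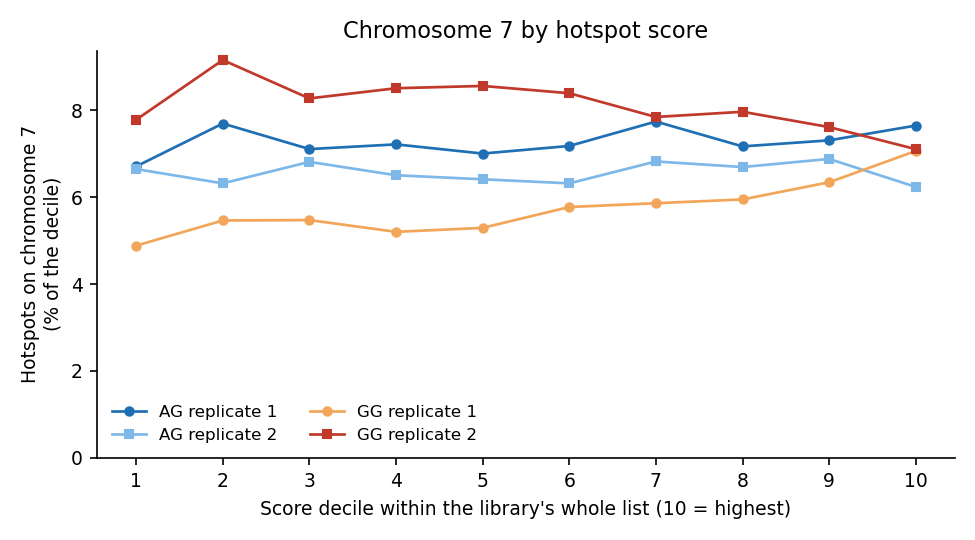
Share of each score decile (1 lowest, 10 highest, ranked within the library's whole list) that lies on chromosome 7, in percent, for the 4 libraries. The GG replicates are apart in decile 1 (4.88% and 7.78%) and meet in decile 10 (7.06% and 7.10%).

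The same 2 GG lists were nonetheless the most alike pair on this chromosome. Their Jaccard index, shared over total covered bp, was 0.248 on chromosome 7 and 0.247 on the other autosomes. The AG pair reached 0.171, against 0.136 to 0.195 for the 4 mixed pairs, the highest of which was AG replicate 1 with GG replicate 1. The AG replicates were thus no more alike by position than some AG and GG libraries were. The mean index within groups exceeded that between groups by 0.0466 (rank 16 of 20 autosomes), and by 0.105 without AG replicate 1, 0.0654 without AG replicate 2, 0.0174 without GG replicate 1 and -0.00156 without GG replicate 2. No test was made of these pairs, which share libraries. In windows, where small shifts in position do not count, values correlated at r = 0.939 within AG and 0.928 within GG, and at 0.817 to 0.855 between groups, across 170 neighbouring windows that are not independent.

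Most regions were found once. Of the 15145 merged regions, 74.4% (11270) came from a single library and 14% (2113) from 2. A further 829 (5.47%) came from 3 libraries and 933 (6.16%) from all 4. The shares on the other autosomes were 75%, 13.7%, 5.40% and 5.89%. Some combinations with 1 GG library departed from the other autosomes, while AG replicate 1 with GG replicate 1 did not (1.55% against 1.59%). GG replicate 2 alone accounted for 24.1% of the regions on chromosome 7 (3656) against 17.6% elsewhere, and GG replicate 1 alone for 14.8% (2246) against 21.5%. Regions of AG replicate 1 and GG replicate 2 made up 1.88% against 1.25% elsewhere, and those of AG replicate 2 and GG replicate 1 made up 1.27% against 1.86%. Of the regions that GG replicate 2 had on chromosome 7, 54.9% were in no other list, against 48.7% on other autosomes. For GG replicate 1 these values were 44.0% and 52.4%. Accordingly, 45.9% of GG replicate 1's hotspots on chromosome 7 overlapped one of replicate 2 (37.5% elsewhere), and 35.6% of replicate 2's hotspots overlapped one of replicate 1 (42.6% elsewhere).

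**Figure D5:**
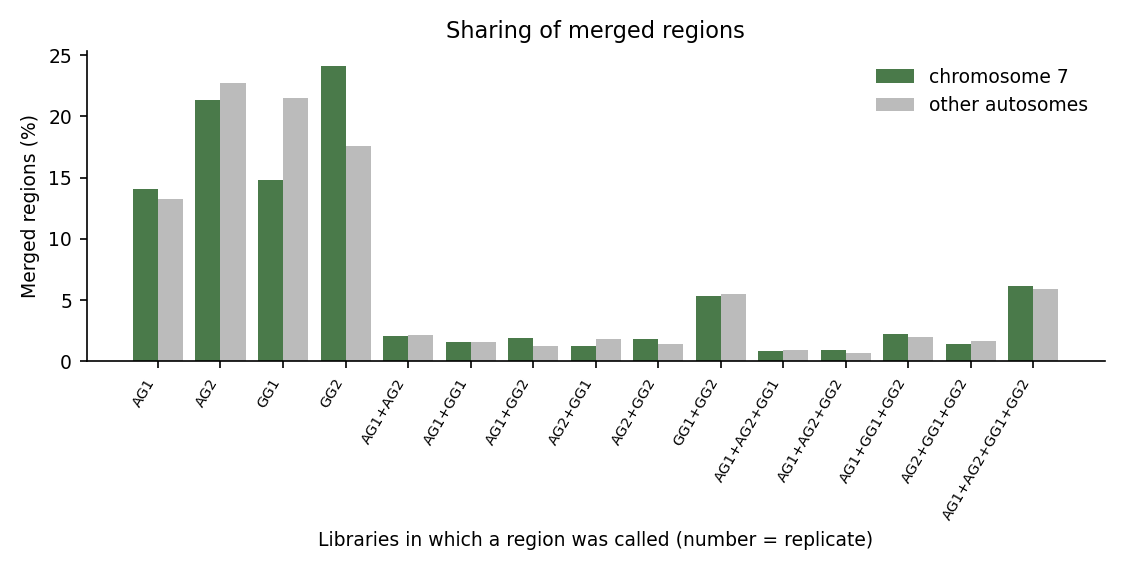
Percentage of merged regions called in each combination of libraries, on chromosome 7 (15145 regions) and on the other autosomes (207631 regions). Regions of GG replicate 2 alone make up 24.1% on chromosome 7 and 17.6% elsewhere, while those in all 4 libraries make up 6.16% and 5.89%.

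Regions found in one kind of embryo only were about as frequent as in the genome as a whole. AG-only regions, with a hotspot in each AG list and none in GG, numbered 316, or 2.09% of those on chromosome 7, where the share over all regions of the series was 2.12%. GG-only regions, the converse, numbered 809, or 5.34% against 5.48%. The ratio of GG-only to AG-only regions was 2.56 on chromosome 7 and 2.58 on the other autosomes. The GG lists were the longer ones in covered length. With lists shortened to equal covered length there were 388 GG-only and 358 AG-only regions on chromosome 7. The share over all regions of the series is not given for that setting. Both classes had intermediate width, with medians of 1402.5 bp (AG-only) and 1410 bp (GG-only), between 763 bp for regions of 1 library and 3047 bp for regions of all 4. A group with 1 library left needs only that library. AG-only regions then numbered 3593 when AG replicate 1 was left out and 2500 when AG replicate 2 was. GG-only regions numbered 4565 when GG replicate 1 was left out and 3146 when GG replicate 2 was.

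The AG-only region that ranked first by score lay at 51200980 to 51202141. Its best hotspot stood at percentile 99.2 of the scores of AG replicate 1 and at percentile 99.1 in AG replicate 2, 12.3 kb from the nearest region called in all 4 libraries. The second, at 4341193 to 4342595 (percentiles 98.4 and 95.7), was 504 kb from the nearest region of all 4. The others were at 134372443 to 134373196 (92.1 and 96.3), at 5187 to 5961, the first region of the chromosome (90.8 and 93.2), and at 166345547 to 166347323 (90.5 and 97.6). Scores of this rank were rare among AG-only regions. Of 316, 5 had their best hotspot above percentile 90 in both AG libraries, and the median of the lower percentile was 36.0.

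The 5 named GG-only regions had higher score ranks than their AG-only counterparts, but were the top of a larger pool, 809 regions against 316. The first, at 60560295 to 60568325, was 8031 bp wide and was covered over 8002 bp in GG replicate 1 and 7827 bp in GG replicate 2, at score percentiles 99.7 and 99.6, with 0 bp in either AG library. It was the widest of the 10 named group-only regions. The second, at 44131101 to 44133047 (percentiles 99.9 and 99.5), and the fourth, at 43969172 to 43970406 (97.3 and 97.1), lay in the same segment. The third was at 69243014 to 69244604 (98.3 and 99.6), and the fifth, 7439 bp wide, at 35919493 to 35926931 (95.9 and 96.5). Of the 809 GG-only regions, 13 had their best hotspot above percentile 90 in both GG libraries. Among the 316 AG-only regions, 5 did so in both AG libraries. The median of the lower percentile was 40.4 in GG-only and 36.0 in AG-only regions.

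The regions open in all 4 libraries included the chromosome's highest-scoring hotspot of AG replicate 2 and of each GG library. In AG replicate 1 the highest score on the chromosome was 93.2, against 60.3 in the first-ranked of these regions. First by the lowest of the 4 score percentiles was 12964087 to 12966391, at percentile 99.9 in its weakest library. It was followed by 49786257 to 49788617 (99.8 in its weakest library), 60803106 to 60805444 (99.8), 31699765 to 31700673 (99.8) and 95953508 to 95955897 (99.6). The widest were 14831 bp at 169053207 to 169068037 near the end of the chromosome, 13641 bp at 67900530 to 67914170 and 11233 bp at 41977564 to 41988796. Breadth and score were not the same ranking, as none of these 3 was among the 5 strongest. Of the 933 regions in all 4, 132 had their best hotspot above percentile 90 in every library.

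Some of the strongest hotspots were found in 1 library. The 5 highest were 3 of GG replicate 2, at 160460890 to 160460963 (percentile 99.9), 34399583 to 34400390 (99.8) and 109853419 to 109853769 (99.8), and 2 of AG replicate 2, at 60789283 to 60790798 (99.8) and 26864939 to 26865214 (99.7). Of these, 3 were narrow, at 74, 351 and 276 bp, against a median of 763 bp for regions of 1 library. Scores above percentile 90 occurred in 212 of the 11270 regions of 1 library.

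AG and GG were then compared window by window, to ask which parts of chromosome 7 differed between paternal and maternal genomes. By limma over 2682 windows of the genome, 0 of the 170 windows of chromosome 7 passed a Benjamini-Hochberg adjusted p of 0.05, where 0% of all windows did. At an unadjusted limma p under 0.05 there were 17 (10%), below the 18% of all windows. Of these 17, 16 were higher in GG (9.41%, against 11.3% of all windows) and 1 in AG (0.588%, against 6.67%). A difference over 2-fold was reached in 11 windows higher in GG (6.47%, against 8.72% of all windows) and in 1 higher in AG (0.588%, against 2.65%). Scaling each library by its median window instead moved the median AG minus GG difference over all windows from -0.04 to 0.08, and the 19 windows under 0.05 were then 13 higher in GG (7.65%, against 9.06% of all windows at that setting) and 6 in AG (3.53%, against 9.88%), or 11.2% together against 18.9%. With each library scaled to its own mean on the chromosome there were 31 (18.2%, against 18.8%), 21 higher in GG (12.4%, against 11.7%) and 10 in AG (5.88%, against 7.16%), and 0 passed the adjusted threshold. The number of calls rested on the settings of the fit. With a variance trend in limma, 14 windows passed the adjusted threshold (8.24%, against 8.13% of all windows), 10 higher in GG (4.77% of all windows) and 4 in AG (3.36% of all windows). With an offset of 10000 bp it was 7 (4.12%, against 5.07%), all higher in GG, where 3.69% of all windows were called in that direction.

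The smallest p was at 74000001 to 75000000, where hotspots covered 7.95 and 12.8 kb in AG and 37.8 and 45.0 kb in GG. Scaled coverage was 2.97-fold higher in GG (log2 of AG over GG -1.57, SE 0.27), with a limma adjusted p of 0.132. Both AG libraries were low and the groups did not overlap. Next among windows higher in GG were 146000001 to 147000000 (5.58 and 5.35 kb in AG, 18.5 and 25.1 kb in GG) and 103000001 to 104000000 (5.23 and 6.96 kb against 20.4 and 32.2 kb). They were followed by 14000001 to 15000000 (log2 -1.16) and 145000001 to 146000000 (log2 -1.68). The adjusted p of these 4 was 0.149 by limma.

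Higher in AG, the smallest p belonged to 166000001 to 167000000, with 54.9 and 57.8 kb in AG and 25.3 and 48.8 kb in GG (log2 1.02, SE 0.40, limma adjusted p = 0.274). The next 4 were 1000001 to 2000000 (log2 0.98), 63000001 to 64000000 (0.82), 20000001 to 21000000 (0.57) and 28000001 to 29000000 (0.68). In each of these 5 windows GG replicate 1 had the lowest coverage, and the GG replicates were 0.27 to 1.05 apart in log2.

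Groups that did not overlap were less frequent on chromosome 7 than over the genome. Both AG libraries lay above both GG libraries in 24 windows (14.1%, against 24.1% of all windows), and below in 34 (20.0%, against 28.9%). Together these 58 windows were 34.1% of the chromosome, where 53% of all windows did not overlap. With median scaling the split was 35 higher in AG (20.6%, against 31.1% of all windows at that setting) and 28 in GG (16.5%, against 21.7%). Without AG replicates 1 and 2 the number was 91 and 115, and without either GG library 125, since 3 libraries overlap less often. No share over all windows is given for these settings, so the counts are not set against the genome. With each library scaled to its own mean on the chromosome, the number rose to 85 (50.0%, against 52.3% of all windows). Of these, 42 were higher in AG (24.7%, against 24.9%) and 43 in GG (25.3%, against 27.4%).

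Scaled in that way, some adjoining windows had the same direction, about as often as elsewhere. Runs of at least 3 such windows, a description chosen after the values were seen, numbered 5 higher in AG and 3 higher in GG. That was 2.94 and 1.76 per 100 windows, against 2.35 and 2.27 on the other autosomes, whose longest runs had 7 and 11 windows. The longest on chromosome 7 covered the first 6 windows, 1 to 6000000, where hotspots summed to 156 and 160 kb in AG and 97.3 and 165 kb in GG, or 0.73 higher in AG in mean log2 within the chromosome. In covered length GG replicate 2 was the highest there, whereas the first 5 of these windows were higher in both AG libraries after scaling to the whole genome as well. The GG-higher run at 145000001 to 149000000 stood apart in covered length too. Its hotspots summed to 15.02 and 26.8 kb in AG and 71.3 and 114 kb in GG, a mean log2 of -1.62, and all 4 windows were among the 16 higher in GG with an unadjusted limma p under 0.05. The remaining GG-higher runs were 13000001 to 17000000 (78.6 and 95.6 kb in AG, 148 and 171 kb in GG) and 112000001 to 115000000 (109 and 110 kb against 176 and 205 kb).

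The most and the least covered windows were not among those 17 with an unadjusted p under 0.05. The most covered was 41000001 to 42000000, with 105 and 101 kb in AG and 111 and 110 kb in GG (log2 0.25, SE 0.25). The next, 84000001 to 85000000, had 75.6 and 82.4 kb in AG and 116 and 122 kb in GG (log2 -0.23, SE 0.23), and 17000001 to 18000000 had 99.1 and 83.0 kb against 104 and 104 kb. The least covered were 65000001 to 66000000, 30000001 to 31000000 and 104000001 to 105000000, with 1.91 to 17.2 kb in any library.

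Over segments of 10 Mb, 0 of 17 passed an adjusted p of 0.05 by limma, where 0% of 284 segments of the genome did, and 0 of 17 had an unadjusted p under 0.05, against 23.6% of all (9.15% higher in AG and 14.4% in GG). A difference over 2-fold was reached by 0 of 17, against 0.352% higher in AG and 1.06% in GG over all segments. The groups did not overlap in 1 segment (5.88%, against 56.7%). It was higher in GG, as were 33.8% of all segments, and 0 segments were without overlap and higher in AG (22.9% of all). This was segment 15, which held 116 and 142 kb in AG and 176 and 270 kb in GG (log2 -0.39, SE 0.25, limma adjusted p = 0.389). The groups barely parted there, at scaled log2 values of -1.032 in AG replicate 1 and -1.027 in GG replicate 1. With median scaling, or with an offset of 10000 bp, 0 of 17 segments were without overlap. No share over all segments is given for these 2 settings. Segment 15 contains the run at 145000001. Scaled within the chromosome, 9 of 17 segments did not overlap (52.9%, against 61.6%), and 5 had an unadjusted limma p under 0.05 (29.4%, against 28.2%), 3 higher in AG (against 11.3% of all) and 2 in GG (against 16.9%). Segments 1, 3 and 6 were then higher in AG, and segments 4, 9, 10, 11, 12 and 15 higher in GG, with mean log2 differences from 0.34 in segment 1 to -0.39 in segment 15.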

How the data were processed

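DNase-seq lists of 4 macaque morula libraries were used, 2 AG and 2 GG, grouped by their labels. For each library the authors deposited a hotspot list at a false discovery rate of 0.01 (per the file names), with a position and a score; neither the program nor the scale of the score is given in the sources used here. The deposited score served only as a rank within a list. Per the submitters' processing notes, reads were processed with deepTools 3.3.1, SAMtools, Bowtie2 and Trim Galore (roles not stated) on build rheMac8.

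An overlap of 1 bp put a region into a library. Windows of 1 Mb and segments of 10 Mb averaging 2000 covered bp or more (offset 1000 bp) were tested over the whole genome with limma (lmFit and eBayes, no replicate block), adjusted by Benjamini-Hochberg over 2682 windows or 284 segments. Chromosome length was taken as the end of the last hotspot. The fit was tested on simulated windows of 1 Mb with planted AG against GG changes. It called 19.4% of windows with a planted log2 change of 1, 68.2% at 2 and 77.6% at 3. Of the unchanged windows it called 0.161%. A count of 0 calls therefore does not show that AG and GG were alike. The named regions are, per class (AG-only, GG-only, all 4 libraries, 1 library), the 5 with the highest lowest-percentile of score; the named windows are the 5 with the smallest p per direction, the 3 most and least covered and the 3 with the widest replicate difference. The 3 widest regions of all 4 and the 3 longest stretches without a hotspot were also named. Members, lists and tests were chosen with earlier results of these data known. Alternatives are given in the closing section. R 4.3.3 with limma 3.58.1 and Python 3.11.15 with scipy 1.17.1, pandas 2.3.3 and numpy 2.4.6 were used.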

Additional observations from a re-analysis of the deposited data

How the results depend on the processing

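Of 107 alternative values, 85 counted as kept. Depending on the result, this meant the same sign, an equal value or one within 1.5 times, or a change within the spread. No p-value entered this tally, and it includes counts of 0 limma calls that stayed at 0. The counts below are for chromosome 7, and a share over the genome is given only where one is printed. In the higher-scoring 50% of each list, chromosome 7 had 174 AG-only and 477 GG-only regions, and the median size of the GG replicate difference per window was 0.33. With lists shortened to equal covered length there were 388 GG-only regions, and the AG minus GG difference in hotspot number turned to 925, for which the cause was not tested. With an offset of 10000 bp limma called 7 windows of chromosome 7, all higher in GG (4.12%, against 5.07% of all windows), and the AG replicate difference was 0.21. With a variance trend it called 14 (8.24%, against 8.13% of all windows). Of these, 10 were higher in GG, where 4.77% of all windows were called in that direction. Windows of 500 kb gave 124 without overlap of the groups, from more windows. No share over all such windows is given, so this count is not set against the genome. Leaving out 1 library gave shares differing by -1.25 to 1.03 percentage points, covered lengths by -2.41 to -0.818 Mb, numbers by -1734.5 to -184.5, an excess in Jaccard index of -0.00156 to 0.105, 448 to 3593 AG-only and 1035 to 4565 GG-only regions, 91 to 125 windows without overlap, and 0 windows or segments called. The GG replicate gap in share was 2.28 percentage points and 1.52 to 2.39 in lists shortened or filtered or by number, alternatives chosen after seeing the data.

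Replicate numbers were not taken to pair the samples: replicate differences of AG and GG correlated at -0.0842 over windows and -0.148 over segments of the genome, and at 0.251 over the 170 windows of chromosome 7 alone. The replicate block called 0 windows and 0 segments of chromosome 7, and so did the crossed pairing of segments. Of the 20 named regions, 15 kept their class when 50% of the region had to be covered. Depth is unknown, so a missing hotspot does not show closed chromatin.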

Other observations

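Regions that fewer libraries shared lay farther from shared open chromatin. On chromosome 7 the median distance to the nearest region of all 4 libraries was 31.6 kb for regions of 3 libraries, 40.6 kb for AG-only, 50.8 kb for GG-only and 74.9 kb for regions of 1 library. On the other autosomes these medians were 33.4, 40.6, 59.3 and 89.5 kb. Regions called in GG replicate 2 alone, the library with the high level on this chromosome, lay at a median of 98.4 kb, against 58.1 kb for GG replicate 1 alone. On the other autosomes these 2 medians were alike, at 98.9 and 98.0 kb. Within 10 kb of a region of all 4 lay 12.1% of the regions of GG replicate 2 alone and 17.5% of those of GG replicate 1 alone. On the other autosomes these shares were 13.3% and 12.3%. By both measures the regions of GG replicate 1 alone departed more from the other autosomes than those of GG replicate 2 alone.

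Single lists left gaps on chromosome 7 whose longest ran from 440 kb (GG replicate 2) to 905 kb (AG replicate 1). Stretches with no hotspot in any of the 4 lists had a median of 5.17 kb. The longest of these, at 76084108 to 76409293, measured 325 kb and was the 1 stretch over 200 kb. The next, 190 kb at 75583605 to 75773437, lay in the same segment, and the third measured 181 kb at 59876342 to 60057594. The 4 lists together covered 16.9 Mb, or 9.98% of the length to the last hotspot, in which chromosome 7 makes up 6.34% of the autosomes.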
